A study of Arabidopsis thaliana with 8 samples.

Results

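The 37 nuclear genes described here encode the light-harvesting antennas, the nuclear-encoded subunits of the photosystems, and the small subunit and activase of Rubisco in Arabidopsis thaliana. They were chosen by locus, all 37 were found among the 32678 genes of each deposited table, and all 37 had reads in every library. They fell into 14 antenna genes of photosystem II (LHCB), 6 antenna genes of photosystem I (LHCA), 2 early light-induced genes (ELIP), 5 genes of photosystem II, 5 genes of photosystem I and 5 Rubisco genes. RNA came from whole wild-type seedlings of the Columbia accession, 10 days old, grown on MS medium in continuous light at 22 °C. The 4 groups, each of 2 biological replicates, received a mock treatment or 50 μM of ABA (abscisic acid), PA (phaseic acid) or DPA (dihydrophaseic acid) for 3 h. PA is formed from ABA by oxidation and ring closure, and DPA from PA by reduction of its ketone to a hydroxyl.

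Chlorophyll proteins of the LHCB and LHCA families bind around the photosystems and pass light energy to their reaction centres. The reaction-centre core proteins are encoded in the chloroplast, and all 133 chloroplast loci in the tables were listed at 0. Why they stood at 0 was not tested. The photosystem genes described here encode other subunits, made from nuclear genes. Rubisco fixes carbon dioxide with large subunits from the chloroplast and small subunits from the nuclear RBCS family, and Rubisco activase (RCA) frees its sites of inhibitory sugar phosphates. ELIPs are relatives of the antenna proteins that accumulate during greening and light stress. ABA is the hormone of drought and seed dormancy, and photosynthesis genes are known to be repressed by prolonged exposure to it.

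The deposited tables give group means, and reads per library were recovered from them. Gene reads per library ran from 11.5 to 15.9 times 1e6. The files do not tell which library is which replicate, so a pair of values is always given with the library of higher size factor (a scaling by depth) first. Values are normalized counts, that is, reads divided by the size factor. A call against mock is an adjusted p under 0.05 in the authors' deposited table. A call between compounds is an adjusted p under 0.05 from limma, a linear model fitted to log2 of the recovered values plus 1 in the 19617 genes whose mean reached 10. In the authors' deposited table RD29B, a late ABA-responsive gene, had means of 173 in mock, 25535 with ABA and 838 after PA. Its mean after DPA was 160 there.

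Sequences before 2 of the 3 genes called with ABA are shown, ELIP1, which rose, and RBCS2B, which fell, with ELIP2, the uncalled relative of ELIP1, for comparison. The window of RBCS1B, the third, overlaps an annotated exon and is not printed. Each is the 250 bases before the annotated 5′ end of the gene, in the gene's direction, from RefSeq TAIR10.1, at chr3:8085670-8085919 (minus strand), chr4:8417992-8418241 (plus strand) and chr5:15382072-15382321 (minus strand). Capitals mark matches on either strand to the G-box CACGTG, the ABRE ACGTGNC (N is any base) and the I-box GATAAG, which can overlap.
ELIP1: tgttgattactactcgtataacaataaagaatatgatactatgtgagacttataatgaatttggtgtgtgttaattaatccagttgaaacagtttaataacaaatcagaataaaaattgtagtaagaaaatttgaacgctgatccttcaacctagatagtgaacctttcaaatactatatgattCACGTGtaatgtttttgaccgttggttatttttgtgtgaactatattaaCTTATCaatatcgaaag
ELIP2: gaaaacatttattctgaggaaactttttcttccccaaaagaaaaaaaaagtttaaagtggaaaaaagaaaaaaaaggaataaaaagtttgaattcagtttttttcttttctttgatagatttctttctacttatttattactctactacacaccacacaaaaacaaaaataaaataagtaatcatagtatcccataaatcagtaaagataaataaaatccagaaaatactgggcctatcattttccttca
RBCS2B: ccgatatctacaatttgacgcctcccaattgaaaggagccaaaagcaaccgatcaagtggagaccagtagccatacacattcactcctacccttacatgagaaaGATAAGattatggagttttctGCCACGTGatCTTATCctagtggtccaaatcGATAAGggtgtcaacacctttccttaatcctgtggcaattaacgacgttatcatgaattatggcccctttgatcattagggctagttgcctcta
The ELIP1 window held 1 G-box and 1 I-box, the ELIP2 window held none of the 3 motifs, and the RBCS2B window held 1 G-box overlapping 1 ABRE and 3 I-boxes. The window of RBCS1B held 0 G-boxes, 0 ABREs and 2 I-boxes. Each window ends at the 5′ end that most annotated transcripts of a gene share. Windows of other members, among them RBCS1A and RBCS3B, also overlap an annotated exon. A G-box stood in the windows of 12 of the 37 genes (32.4%) and in 6.72% of 27443 windows of all genes. An ABRE stood in 15 of the 37 (40.5%) and in 8.89% of all windows, and an I-box in 17 of the 37 (45.9%) and in 12.5%. The sequence CCAATC, known from targets of the GLK factors, stood in 12 of the 37 (32.4%) and in 10.4% of all windows. These matches are a description of the letters and not of bound sites.

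With ABA, 3 of the 37 genes passed the test against mock in the authors' deposited table: ELIP1 rose 12.2-fold, and RBCS1B and RBCS2B, which encode Rubisco small subunits, fell to 0.532 and 0.698 of their mock means. Over all 24069 genes with an adjusted p, 10.3% were called higher and 5.12% lower with ABA, and the members' counts of 1 higher and 2 lower lay below and near that background. limma called the same numbers, 1 and 2 of 36, where it called 18.0% and 14.3% of all genes. Group means of 33 of the 37 genes were below mock with ABA, and the median log2 fold change over the members was -0.25, against -0.01 over all genes tested. It was -0.28 over the 20 antenna genes, -0.17 over the 10 photosystem genes and -0.40 over the 5 Rubisco genes in the authors' deposited table. From the recovered libraries, the antenna and photosystem medians were -0.09 and -0.06 when the lower-size-factor mock library was dropped, and -0.13 and -0.07 when the higher-size-factor ABA library was. They were -0.44 and -0.25 when the higher-size-factor mock library was dropped, and -0.46 and -0.28 when the lower-size-factor ABA library was, while the Rubisco median ran from -0.56 to -0.26. In bulk RNA of whole seedlings, fewer cells of a type and less RNA per cell cannot be told apart. For 11 of the 37 genes both ABA libraries lay below both mock libraries, where 31.6% of all genes did so, and for 2, both of them ELIP genes, both lay above, where 32.6% did.

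**Figure D1:**
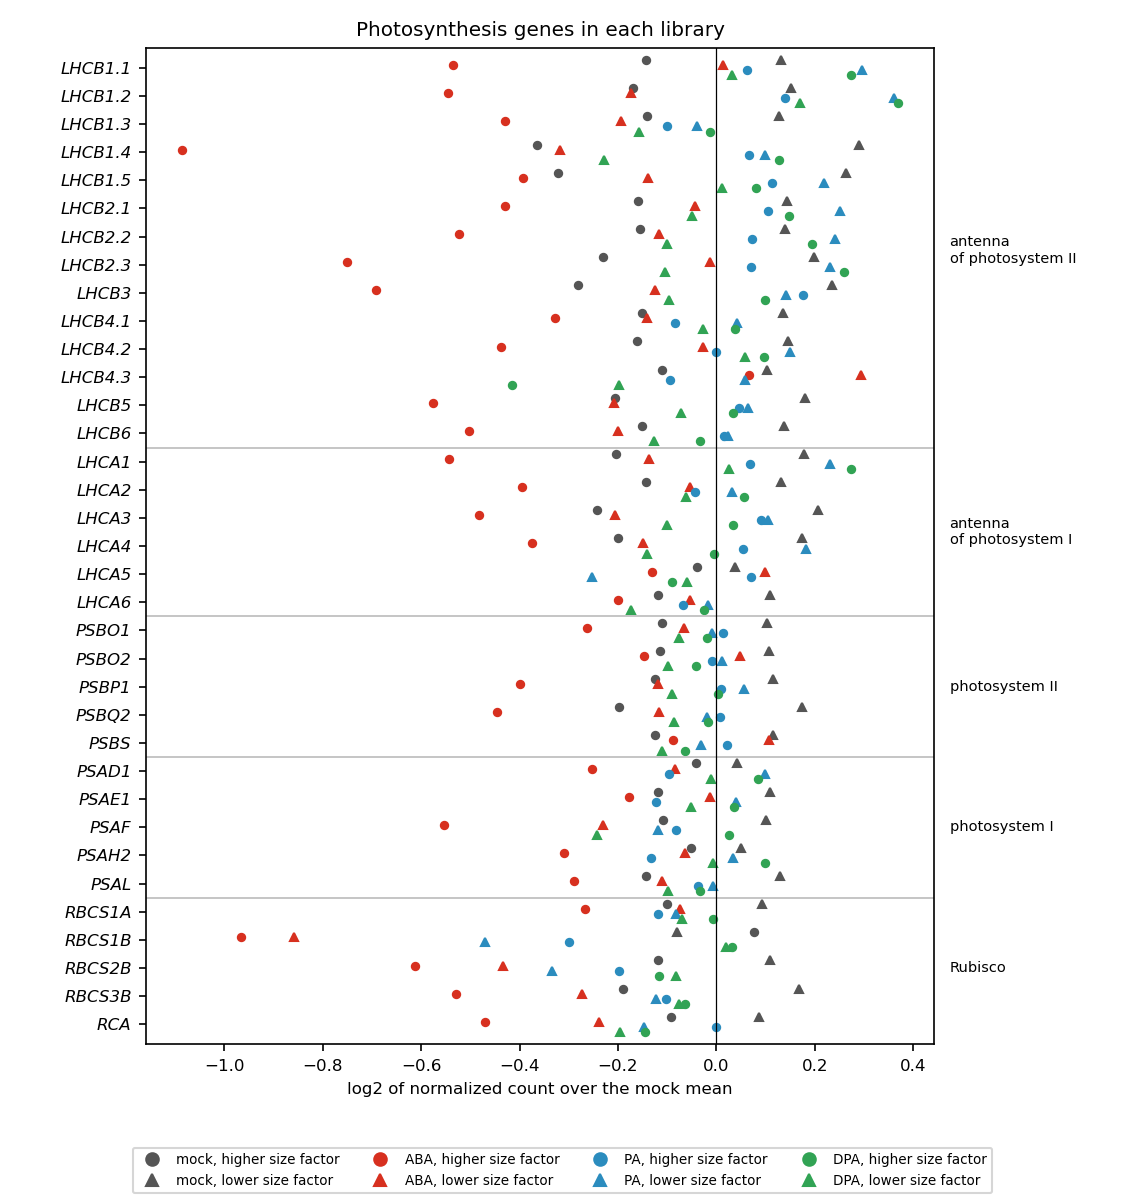
Each row is a gene and each point a library; the x axis is the log2 ratio of the library's normalized count to the mean of the mock libraries, with colour for the group and shape for the size factor within it. The ELIP genes are left out. For RBCS1B both ABA libraries lie far to the left and close together, at -0.97 and -0.86, while the antenna genes of the ABA library of higher size factor lie far from those of the other ABA library.

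Within mock and within ABA the libraries differed for the photosynthesis genes as a block. In mock, 36 of the 37 genes were higher in the library of lower size factor, by a median of 0.27 on the log2 scale, where 51.5% of all genes were. With ABA, 37 of 37 were higher in the library of lower size factor, by a median of 0.25, where 49.2% of all genes were. PA libraries differed by a median of 0.05, with 26 of 37 higher in the library of lower size factor, where 50.0% of all genes were. DPA libraries differed by -0.09, with 5 of 37 higher in that library, where 51.5% of all genes were. The members made 7.53% and 8.88% of gene reads in the mock libraries, 6.02% and 7.19% after ABA, 8.22% and 8.46% after PA, and 8.46% and 7.84% after DPA. The ABA libraries thus held the lowest shares, and the spread within mock and within ABA was wider than the distance between their nearest libraries. With the higher-size-factor mock library left out, limma called 12 of 36 members lower with ABA instead of 2, and 11.9% of all genes lower. Leaving out the ABA library of lower size factor gave 6 members lower and 9.24% of all genes, and leaving out that of higher size factor gave 1 member and 8.81%.

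Of the 5 Rubisco genes, RBCS1B and RBCS2B fell with ABA and none rose. RBCS1B (AT5G38430, chr5:15383167-15385320, 3 exon blocks, TAIR10.1) had normalized counts of 11712 and 10511 in the mock libraries, 5686 and 6132 after ABA, 9022 and 8026 after PA, and 11358 and 11263 after DPA. Both ABA libraries lay below both PA libraries, which lay below both mock and both DPA libraries. The log2 fold change with ABA was -0.91, with an adjusted p of 6.80e-12 in the authors' deposited table, and limma gave -0.91 with a 95% interval from -1.12 to -0.70. RBCS1B took 5.84% and 4.54% of the reads of the 4 RBCS genes in mock, 3.40% and 3.195% after ABA, 4.58% and 4.07% after PA, and 5.35% and 5.46% after DPA. Its fall was therefore larger than that of the RBCS reads as a whole in both ABA libraries, and the order of the groups was the same on this scale as on that of the counts, except that a PA library (4.58%) lay above a mock library (4.54%).

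RBCS2B (AT5G38420, chr5:15380907-15382071, 3 exon blocks) had normalized counts of 20071 and 23500 in mock, 14258 and 16138 after ABA, 18994 and 17273 after PA, and 20093 and 20576 after DPA. Both ABA libraries lay below all 6 others. The log2 fold change with ABA was -0.52, with an adjusted p of 0.00563 in the authors' deposited table, and limma gave an interval from -0.77 to -0.26. The call did not pass by limma when the ABA library of higher size factor was left out (adjusted p 0.0629). RBCS3B (AT5G38410, chr5:15376988-15378642) had 31261 and 40056 in mock, 24699 and 29526 after ABA, 33223 and 32740 after PA, and 34105 and 33845 after DPA. Its ABA libraries lay below the others, but the adjusted p of 0.294 in the authors' deposited table did not pass. These 3 genes are neighbours on the minus strand of chromosome 5 in the annotation.

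RBCS1A (AT1G67090, chr1:25048158-25049667) is the most abundant small subunit gene and, per kilobase of transcript, had the highest mock level of the 37 genes. It had 137561 and 157288 normalized counts in mock, 122583 and 140111 after ABA, 135811 and 139173 after PA, and 146691 and 140458 after DPA. The ABA and mock libraries overlapped, and the log2 fold change of -0.17 in the authors' deposited table had an adjusted p of 0.534. RBCS1A took 68.6% and 68.0% of RBCS reads in mock and 73.3% and 73.0% after ABA. RCA (AT2G39730, chr2:16570746-16573692) had 73887 and 83641 in mock, 56882 and 66731 after ABA, 78721 and 71098 after PA, and 71234 and 68795 after DPA. Its ABA libraries lay below all others, and its adjusted p with ABA was 0.0664 in the authors' deposited table.

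The RBCS genes on chromosome 5 share sequence: 11.96%, 16.9% and 16.5% of the 50-base windows of RBCS1B, RBCS2B and RBCS3B occur elsewhere in the genome, and reads from those windows cannot be placed by sequence alone. RBCS1A had no such window. The deposited row for alignments that are not unique was 0 in all 4 groups, so no reads were set aside there at counting. How the alignment treated such reads is not given in the sources used here, so the split between the 3 neighbours is uncertain. The windows counted are exact matches within exon blocks. Near matches and reads across exon junctions are not in these shares.

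**Figure D2:**
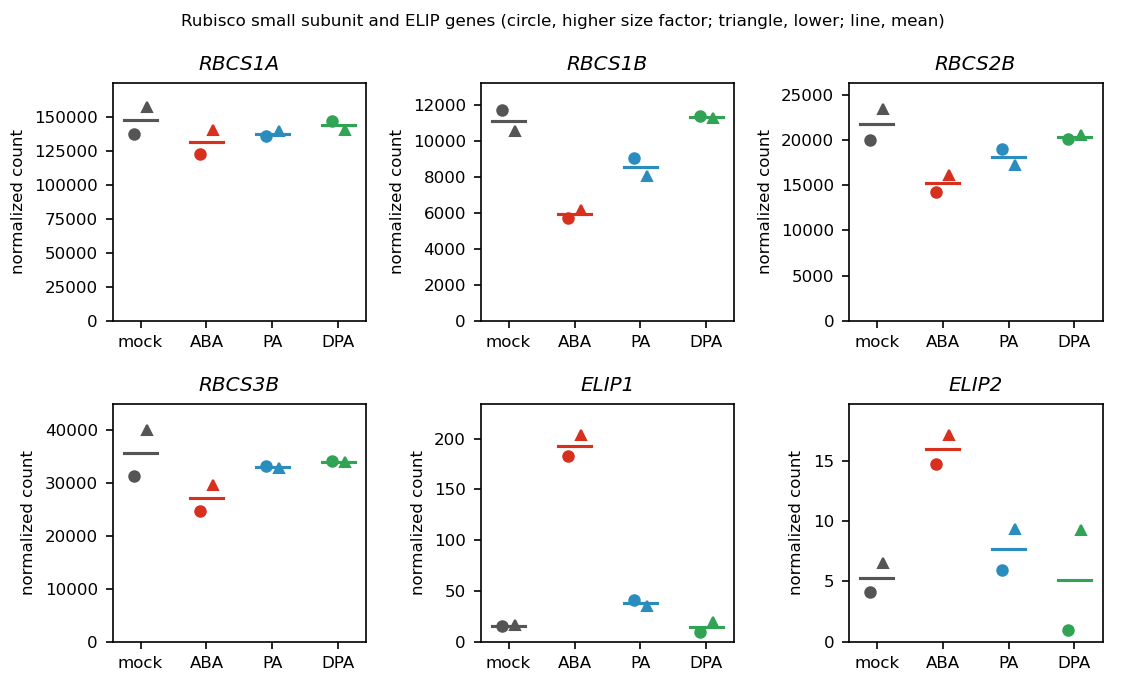
Normalized counts (y axis, from 0) of 4 RBCS genes and 2 ELIP genes by group (x axis); each point is a library and each line the mean of 2. RBCS1B shows ABA lowest, PA between and mock with DPA highest, while ELIP1 stands at 183 and 203 with ABA and at 41.1 or less in all other libraries.

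Of the ELIP genes, ELIP1 rose and ELIP2 did not pass. ELIP1 (AT3G22840, chr3:8084405-8085669, 3 exon blocks) had 15.3 and 16.4 normalized counts in mock, 183 and 203 after ABA, 41.1 and 35.1 after PA, and 9.99 and 19.6 after DPA. Both ABA libraries lay far above all others, and both PA libraries lay above both mock and both DPA libraries. The log2 fold change with ABA was 3.61, with an adjusted p of 2.72e-23 in the authors' deposited table. With PA it was 1.27 with an adjusted p of 0.597 in the authors' deposited table and 0.103 by limma, whose 95% interval ran from 0.52 to 1.91.

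ELIP2 (AT4G14690, chr4:8418242-8419325) was counted in few reads, with 4 and 6 in mock, 17 and 14 after ABA, 7 and 8 after PA, and 1 and 9 after DPA. Its normalized counts were 4.09 and 6.54 in mock, 14.8 and 17.1 after ABA, 5.99 and 9.35 after PA, and 1.00 and 9.29 after DPA. The ABA libraries lay above all others, but the adjusted p of 0.306 in the authors' deposited table did not pass at this depth. ELIP2 was below the minimum mean of the limma fit, so 36 of the 37 genes were fitted.

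None of the 20 antenna genes passed the test against mock with ABA, by the authors' deposited adjusted p or by limma. At an unadjusted p under 0.05 the deposited p gave 0 of 20 and limma 3 of 20, all lower, where 9.58% and 19.7% of all genes were lower. The deposited log2 fold changes of the antenna genes ran from -0.65 (LHCB1.4) to 0.18 (LHCB4.3), and 19 of 20 were below 0. The median was -0.31 over the 14 genes of photosystem II and -0.24 over the 6 of photosystem I in the authors' deposited table. Both ABA libraries lay below both mock libraries in 4 of the 14 (LHCB1.2, LHCB1.3, LHCB5 and LHCB6) and in 0 of the 6. Of all genes, 31.6% did so.

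LHCB1 encodes the main protein of the trimeric antenna LHCII. LHCB1.3 (AT1G29930, chr1:10477885-10479114, 1 exon) had the highest antenna level, with 124113 and 149454 normalized counts in mock, 101550 and 119514 after ABA, 127601 and 133015 after PA, and 135609 and 122707 after DPA. Its ABA libraries were the lowest of the 8, and the limma interval of the log2 fold change with ABA ran from -0.70 to 0.09. LHCB1.2 (AT1G29910, chr1:10472280-10473502, 1 exon) had 22726 and 28368 in mock, 17506 and 22652 after ABA, 28148 and 32802 after PA, and 32993 and 28746 after DPA. Its ABA libraries were again the lowest, while the nearest ABA and mock libraries differed by less than the mock libraries did from each other. LHCB1.4 (AT2G34430, chr2:14524607-14525918, 1 exon) had 15877 and 24991 in mock, 9626 and 16385 after ABA, 21390 and 21869 after PA, and 22317 and 17446 after DPA. It had the largest antenna change with ABA, and its ABA and mock libraries overlapped, with an adjusted p of 0.474 in the authors' deposited table.

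The other antenna genes of photosystem II are LHCB1.1 and LHCB1.5, the LHCII genes LHCB2.1, LHCB2.2, LHCB2.3 and LHCB3, and the minor antenna genes LHCB4.1, LHCB4.2, LHCB4.3, LHCB5 and LHCB6, which link LHCII to the core. Their log2 fold changes with ABA in the authors' deposited table ran from -0.38 (LHCB3 and LHCB5) to 0.18 (LHCB4.3), and none passed the test. LHCB4.3 was also the antenna gene of lowest level, with 59.3 and 68.7 normalized counts in mock, 67.0 and 78.4 after ABA, 59.9 and 66.6 after PA, and 47.9 and 55.8 after DPA. LHCB1.1 and LHCB1.2 share 7.91% and 8.52% of their 50-base windows with each other, and LHCB2.1 and LHCB2.2 share sequence in 23.5% and 29.5%. Of the windows of LHCA2, 11.4% occur elsewhere in the genome, and 9.16% occur in the locus AT5G28450.

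LHCA1 to LHCA4 form the antenna belt of photosystem I, and LHCA5 and LHCA6 are rare proteins that join photosystem I to the NDH complex. LHCA4 (AT3G47470, chr3:17493343-17495033) had 36515 and 47316 normalized counts in mock, 32343 and 37807 after ABA, 43487 and 47552 after PA, and 41767 and 38022 after DPA. LHCA3 (AT1G61520, chr1:22699715-22701412), with the largest change of the LHCA genes with ABA, had 23972 and 32714 in mock, 20296 and 24569 after ABA, 30194 and 30485 after PA, and 29032 and 26439 after DPA. In both genes an ABA library lay above the lower mock library. LHCA5 and LHCA6 had log2 fold changes with ABA of -0.01 and -0.12 in the authors' deposited table, and LHCA1 and LHCA2 of -0.33 and -0.22.

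Per kilobase of median transcript length in mock, RBCS1A stood at 128980 and LHCB1.3 at 111206, followed by LHCB1.5 at 52620 and RCA at 39840. The photosystem genes ran from 9611 (PSBO2) to 34984 (PSAE1). At the low end were LHCA6 at 1142, LHCA5 at 1041, LHCB4.3 at 58.4, ELIP1 at 15.3 and ELIP2 at 5.85.

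The 10 photosystem genes gave 0 calls with ABA, by the authors' deposited adjusted p and by limma. At an unadjusted p under 0.05, 1 of 10 was lower by each, where 9.58% and 19.7% of all genes were. Log2 fold changes of the 10 genes in the authors' deposited table ran from -0.38 (PSAF) to 0.01 (PSBS). PSBO1, PSBO2, PSBP1 and PSBQ2 encode the extrinsic proteins that shield the water-splitting site, and PSBS senses lumen acidity in the dissipation of excess light. PSBO1 (AT5G66570, chr5:26568572-26570461) had 39442 and 45706 normalized counts in mock, 35469 and 40679 after ABA, 42986 and 42330 after PA, and 42032 and 40398 after DPA. PSBQ2 (AT4G05180, chr4:2671523-2673243) had 13510 and 17503 in mock, 11379 and 14295 after ABA, 15584 and 15295 after PA, and 15333 and 14601 after DPA. The ABA and mock libraries overlapped in all 5 genes of photosystem II.

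In photosystem I, PSAD1 and PSAE1 encode stromal subunits at the ferredoxin docking site, PSAF the docking site of plastocyanin, and PSAH2 and PSAL the side where LHCII can bind. PSAD1 (AT4G02770, chr4:1229031-1230164) had 30320 and 32120 normalized counts in mock, 26200 and 29471 after ABA, 29208 and 33420 after PA, and 33094 and 30997 after DPA. PSAF (AT1G31330, chr1:11214676-11216141) had 28657 and 33168 in mock, 21065 and 26364 after ABA, 29207 and 28488 after PA, and 31446 and 26120 after DPA. Both ABA libraries lay below both mock libraries in 3 of the 5 genes, PSAD1, PSAF and PSAH2, where 31.6% of all genes did so. For PSAF the adjusted p was 0.142 in the authors' deposited table, and the limma interval ran from -0.71 to -0.06.

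**Figure D3:**
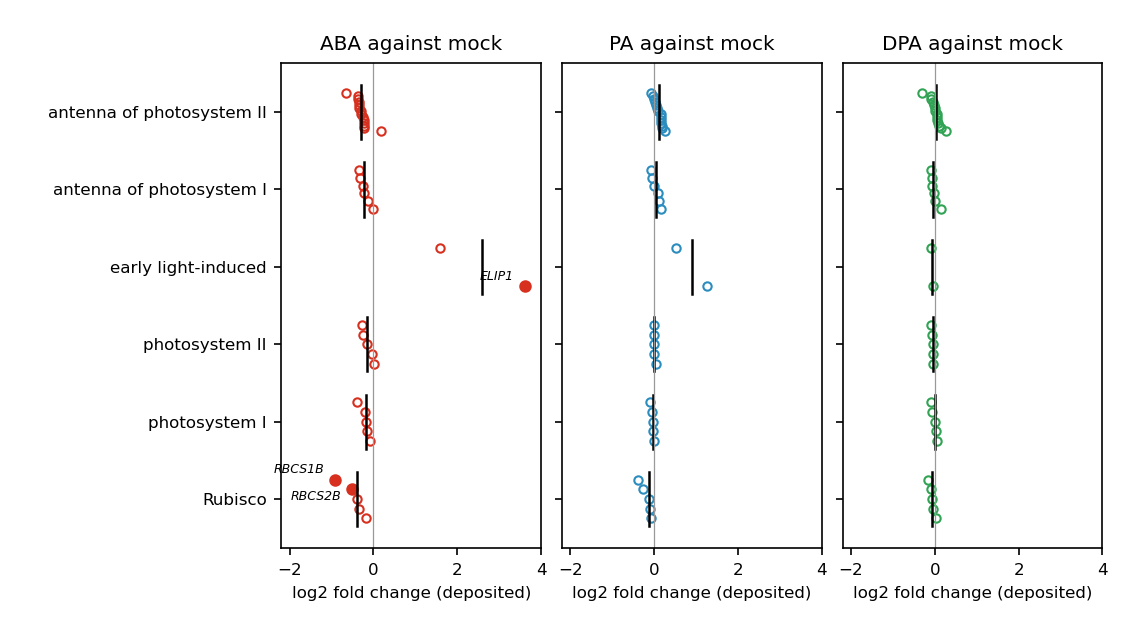
Log2 fold changes against mock (x axis) of the 37 genes in the authors' deposited tables, by gene group (rows) and compound (panels); filled points passed an adjusted p under 0.05 and vertical lines are group medians. With ABA the filled points are ELIP1 at 3.61, RBCS1B at -0.91 and RBCS2B at -0.52, and with PA and DPA there are none.

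With PA, 0 of the 37 genes passed the test in either direction, where 1.18% of all genes were called higher and 0.146% lower in the authors' deposited table. At an unadjusted p under 0.05 the deposited p gave 1 higher (ELIP1) and 1 lower (RBCS1B), and limma gave 1 higher and 2 lower. Of all genes, 3.14% were higher and 1.27% lower by the deposited p, and 7.46% and 4.88% by limma. After adjustment limma called 0 members, where it called 1.84% of all genes higher and 0.311% lower. RBCS1B had a log2 fold change of -0.38 with an adjusted p of 0.141 in the authors' deposited table, and the limma interval ran from -0.59 to -0.17. RBCS2B had -0.26 there, with a limma interval from -0.52 to -0.01. Over the 5 Rubisco genes the median was -0.11, over the 20 antenna genes 0.09, over the 10 photosystem genes -0.01, and over all genes tested -0.01 in the authors' deposited table. Both PA libraries lay below both mock libraries in 2 of 37 genes (19.5% of all genes did) and above in 1 (19.7%).

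With DPA, 0 of the 37 genes passed, where 0.00834% of all genes were called higher and 0.00417% lower in the authors' deposited table. At an unadjusted p under 0.05 there were 0 members by the deposited p, where 0.526% of all genes were higher and 0.392% lower, and 0 by limma, where 2.75% and 2.76% were. limma also made 0 adjusted calls among members and among all genes. The medians over the antenna, photosystem and Rubisco genes were 0.00, -0.05 and -0.07 in the authors' deposited table. For RBCS1B the limma difference from mock was 0.03 with an interval from -0.18 to 0.24, and did not reach the change with ABA. For ELIP1 the limma interval ran from -0.86 to 0.53. Both DPA libraries lay below both mock libraries in 3 of 37 genes (17.1% of all genes did) and above in 1, LHCB1.2 (16.1%).

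The compounds were compared in 3 pairs at the same dose and time, with limma p-values adjusted over all 19617 genes in each pair. These pairs and the comparisons with mock share libraries. In PA against ABA, 2 of 36 fitted members were higher with PA and 1 lower, where 7.34% of all genes were called higher and 12.6% lower. RBCS1B differed by 0.53 on the log2 scale (95% interval 0.32 to 0.74, limma adjusted p 0.00367), LHCB1.2 by 0.61 (0.24 to 0.97, adjusted p 0.0269) and ELIP1 by -2.31 (-3.01 to -1.62, adjusted p 0.000722). Both PA libraries lay above both ABA libraries in 26 of the 37 genes, where 28.9% of all genes did, and in 13 of the 14 antenna genes of photosystem II. They lay below in 3, where 32.5% did. Only 2 of these 26 passed the adjusted test, and with the lower-size-factor ABA library left out 8 members were called higher, where 4.47% of all genes were. LHCB1.2 had an adjusted p of 0.191 when the other ABA library was dropped, and of 0.0639 and 0.179 when either PA library was. The normal test of the deposited differences called 0 higher, with an adjusted p of 0.0567 for RBCS1B and 0.452 for LHCB1.2.

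In DPA against ABA, 3 of 36 members were higher with DPA and 1 lower, where 15.5% and 18.6% of all genes were called. RBCS1B differed by 0.94 (0.73 to 1.15, limma adjusted p 6.15e-05), RBCS2B by 0.42 (0.17 to 0.68, adjusted p 0.0172), LHCB1.2 by 0.63 (0.26 to 0.99, adjusted p 0.0142) and ELIP1 by -3.69 (-4.38 to -2.99, adjusted p 1.93e-05). With the higher-size-factor ABA library left out RBCS2B and LHCB1.2 had limma adjusted p-values of 0.126 and 0.1202, and with the lower-size-factor ABA library left out 10 members were called higher, where 11.2% of all genes were. With the higher-size-factor DPA library left out the values for these genes were 0.0797 and 0.108, and RBCS2B had 0.103 without the other. Both DPA libraries lay above both ABA libraries in 24 of the 37 genes, where 34.3% of all genes did, and below in 3, where 35.8% did. All 5 Rubisco genes were among the 24.

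DPA and PA, which differ by a hydroxyl in place of a ketone, were told apart in 2 members: 1 was higher with DPA and 1 lower, where 1.39% and 2.44% of all genes were called. RBCS1B was higher with DPA by 0.41 (0.20 to 0.62, limma adjusted p 0.0459), and ELIP1 was lower by 1.37 on the log2 scale (interval -2.07 to -0.68, adjusted p 0.0439). Both calls lie near the threshold: for RBCS1B the adjusted p was 0.116 to 0.248 when any PA or DPA library was left out. For ELIP1 it was 0.153 to 0.255 without either PA library or the DPA library of higher size factor, and 0.0190 without the other DPA library. The remaining 34 fitted members did not pass, which does not show that the compounds act alike on them. For LHCB1.3 the interval of DPA minus PA ran from -0.41 to 0.38, and for RBCS1A from -0.32 to 0.44. Both DPA libraries lay above both PA libraries in 4 genes, all of the Rubisco group (26.1% of all genes did), and below in 12 (27.2%).

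**Figure D4:**
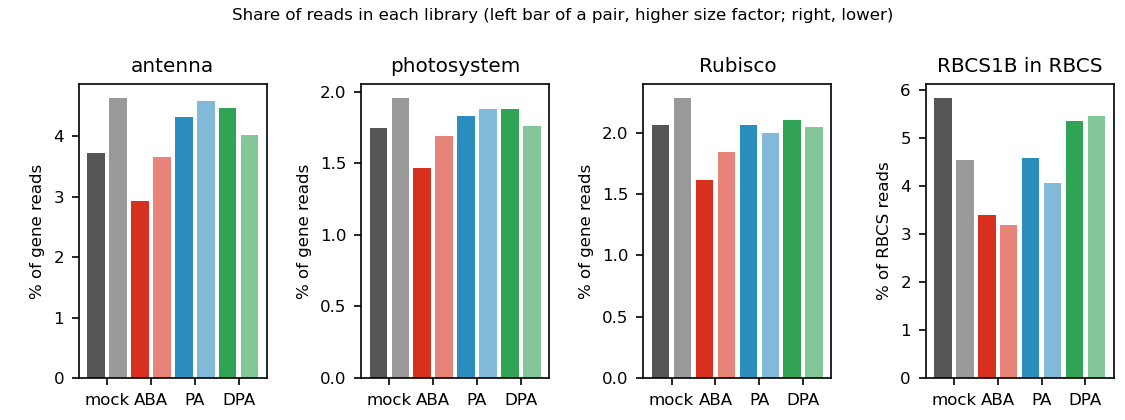
Share of all gene reads taken by the 20 antenna, 10 photosystem and 5 Rubisco genes in each library, and share of RBCS reads taken by RBCS1B (y axes from 0, in percent); bars are single libraries. The ABA libraries have the lowest shares in all 3 gene groups, at 1.62% and 1.84% for Rubisco. They also have the lowest RBCS1B shares of RBCS reads, at 3.40% and 3.195%.

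The antenna genes made 3.72% and 4.63% of gene reads in mock, 2.93% and 3.65% after ABA, 4.33% and 4.58% after PA, and 4.47% and 4.03% after DPA. The photosystem genes made 1.75% and 1.96% in mock, 1.47% and 1.69% after ABA, 1.83% and 1.88% after PA, and 1.88% and 1.76% after DPA. In each of these groups the higher ABA library came close to the lower mock library but stayed below it. The Rubisco genes made 2.06% and 2.28% in mock, 1.62% and 1.84% after ABA, 2.07% and 2.00% after PA, and 2.101% and 2.05% after DPA. As shares of all gene reads, ABA and mock thus did not overlap in any of the 3 groups. On the normalized counts the antenna and photosystem genes did overlap. Their median log2 ratios to the mock mean were -0.13 and -0.07 in the lower-size-factor ABA library. In the higher-size-factor mock library they were lower, at -0.16 and -0.12. The Rubisco medians of these libraries, -0.27 and -0.10, did not overlap.

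Among other genes of photosynthesis, few passed the test with ABA. Of all genes, 10.3% were called higher and 5.12% lower in the authors' deposited table, and 18.0% and 14.3% by limma. Of 17 other photosystem subunit genes 1 was lower, PSBY, a small protein of photosystem II, with a log2 fold change of -0.36 in the authors' deposited table; limma gave it an adjusted p of 0.0643 and called 1 of the 17 higher and 0 lower. Of 13 genes of electron transport and ATP synthase, and of 18 Calvin cycle genes, none passed by the authors' deposited adjusted p. At an unadjusted p under 0.05 the deposited p gave 1 higher and 3 lower in the former and 2 lower in the latter. By that p 14.1% of all genes were higher and 9.58% lower. After adjustment limma called 1 higher in the former list and 1 lower in the latter. Of 23 chlorophyll synthesis genes 2 were lower in the authors' deposited table, HEMC (-0.34) and HEME2 (-0.40), which act early in the tetrapyrrole path, while limma called 8 lower. Medians over these 4 lists were -0.21, -0.14, -0.15 and -0.21 in the authors' deposited table.

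Of 15 regulators 2 rose and 3 fell with ABA, where 10.3% of all genes were called higher and 5.12% lower. CGA1 and GNC, GATA factors that promote chloroplast development, had log2 fold changes of -1.56 and -0.55 in the authors' deposited table and fell, with means of 174 and 1115 in mock and 59.0 and 761 after ABA. GNC had a limma adjusted p of 0.0624 with the lower-size-factor ABA library left out. PIF1 and PIF3, light-labile repressors of chlorophyll and photosynthesis genes in the dark, went opposite ways, with PIF1 at -0.75 and PIF3 at 1.94 in the authors' deposited table. SIG5, a stress-induced sigma factor of the plastid RNA polymerase, rose by 0.99 there. GLK1 and GLK2, activators of antenna genes, had log2 fold changes of 0.25 and -0.16 with ABA in the authors' deposited table and did not pass. With PA 1 of the 15 passed, where 1.18% of all genes were called higher. It was PIF3, at 0.69 with an adjusted p of 0.0493 in the authors' deposited table. That call did not pass by limma with the higher-size-factor mock library left out (adjusted p 0.0726) or without either PA library (0.0564 and 0.259). Of 11 photoprotection and LHC-like genes 2 rose with ABA, ABA1 (0.71), the zeaxanthin epoxidase, and SEP2 (0.41), an LHC-like stress protein, in the authors' deposited table. With DPA 0 genes of these 6 lists passed, by the authors' deposited adjusted p or by limma. At an unadjusted p under 0.05 the deposited p gave 1 lower regulator and 1 lower photoprotection gene, where 0.392% of all genes were lower.

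**Figure D5:**
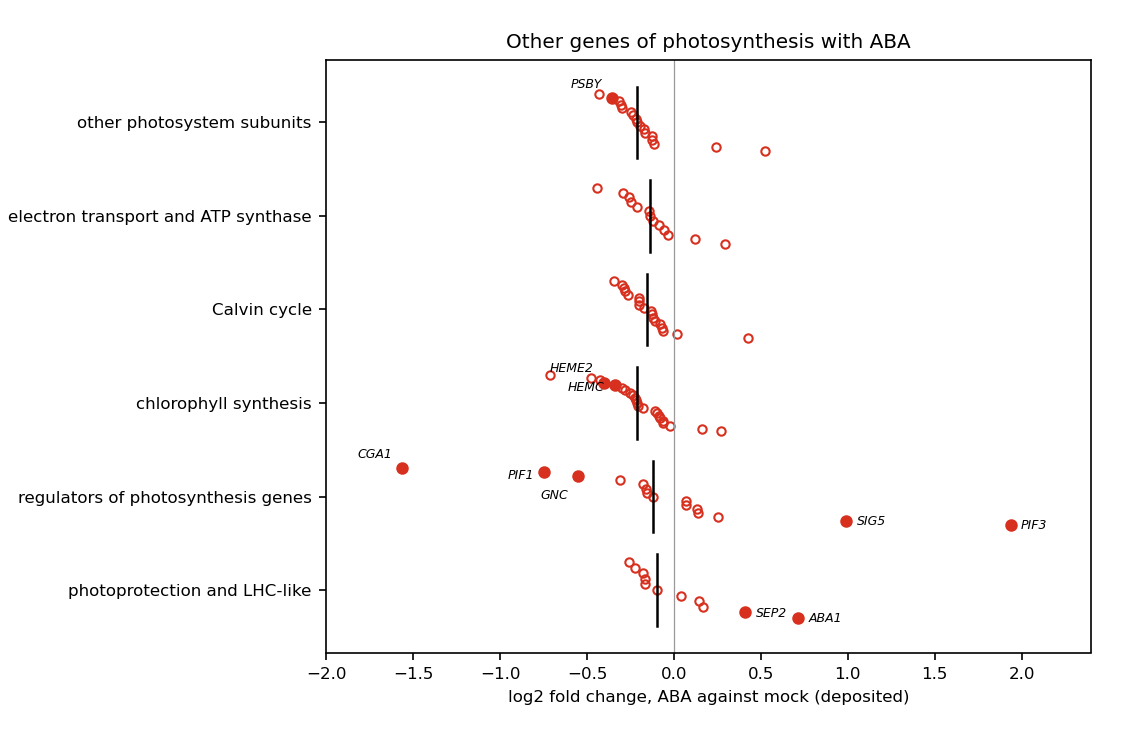
Log2 fold changes with ABA (x axis) of genes in 6 other lists of photosynthesis (rows) in the authors' deposited table; filled points passed an adjusted p under 0.05 and vertical lines are medians. The list medians lie between -0.21 and -0.10, and CGA1 at -1.56 and PIF3 at 1.94 lie farthest out.

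Tissue markers varied beside these values. The summed level of 10 root-enriched genes was 42194 and 37914 in mock, 31374 and 36670 after ABA, 51251 and 36464 after PA, and 49021 and 38245 after DPA. PYK10, a beta-glucosidase, made most of this sum, with a mean of 30106 in mock and 22002 with ABA in the authors' deposited table. The other 9 summed to 11012 and 8883 in mock, 10499 and 13542 after ABA, 11895 and 9686 after PA, and 14771 and 10046 after DPA. None of the 10 was at 0 in all libraries. With ABA 4 rose and 2 fell, where 10.3% of all genes were called higher and 5.12% lower in the authors' deposited table. IRT1, an iron transporter, was listed at 0 after ABA. The summed level of 6 guard cell and stomatal lineage genes was 1996 and 2286 in mock, 1393 and 1690 after ABA, 2192 and 2415 after PA, and 2261 and 2030 after DPA. With ABA 2 of the 6 fell, where 5.12% of all genes were called lower. MYB60 and KAT1 were the 2, with log2 fold changes of -1.05 and -0.61 in the authors' deposited table. Both ABA libraries lay below all others on this sum, and its part in the results above was not tested.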

How the data were processed

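Per the labels' protocols, poly(A) RNA of 8 libraries was sequenced as single reads of 50 bases. The submitters' processing notes name the TAIR10 build and, as tools, DESeq 1.8.3, HTSeq and TopHat 1.4.1. The authors deposited, per the file headers, group means of normalized counts (a signal), fold changes (ratios) and p-values with adjusted p-values for each compound against mock. Here, log2 fold changes were computed from the deposited ratios. Reads assigned to no gene were 48.2% to 48.5% of the total and stayed out.

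Each deposited mean adds the whole reads of a library, times a step, to those of the other, and this gave a single split for 100% of values above 0. limma 3.58.1 (R 4.3.3, trend, pseudocount 1, minimum mean 10, 4 residual and 5.37 prior degrees of freedom) was fitted to all 4 groups, with Benjamini-Hochberg adjustment, and tested on simulated data. The alternative normal test took errors from the deposited p-values. p-values weigh a difference against the spread between biological duplicates, which limma pools over the 4 groups and moderates across genes. Promoters, positions and lengths come from RefSeq TAIR10.1, while the files name TAIR10 and hold no coordinates. Opposite-strand exons overlap LHCB1.3, LHCA4 and RCA among the genes given in full, and the protocol does not say that strand was kept.

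Members and lists were chosen with earlier results of these data known. Library values are given for members called against mock or between compounds, the highest member of each group, and the member with the largest ABA fold change in each group; RBCS3B, RCA and LHCB4.3 were added after their values were seen, as were GLK1, GLK2 and IRT1. From other lists, up to 3 called genes per direction are named.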

Additional observations from a re-analysis of the deposited data

How the results depend on the processing

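Calls of ELIP1 and RBCS1B with ABA kept their direction and passed under every limma setting run. Members called lower with ABA (2) became 8 with upper-quartile scaling (20.1% of all genes), which lowered the median of all genes by 0.09 on the log2 scale (ABA against mock, -0.09), and 1 to 12 when a library was left out. Members called lower with PA (0) became 0 to 1, the 1 when the lower-size-factor mock library was dropped (1.92% of all genes). Members called higher in PA against ABA (2) became 10 with upper-quartile scaling, 1 with no minimum mean, 7 with the 2 groups alone and 0 with the normal test (12.4%, 5.29%, 8.47% and 1.21% of all genes), and 1 to 8 when a library was left out. Members called higher in DPA against ABA (3) became 8 with upper-quartile scaling and 1 with the normal test (21.6% and 2.96% of all genes), and 1 to 10 when a library was left out. In DPA against PA the member called higher (1) became 0 with no minimum mean and with the normal test, and 0 to 0 when a library was left out. The member called lower (1) became 0 with no minimum mean, a minimum mean of 50, the 2 groups alone and the normal test, and 0 to 1 when a library was left out. Except for upper-quartile scaling, fewer samples and other numbers of genes tested, the cause was not tested.

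Median log2 fold changes when a library was left out ran, for the antenna genes, from -0.46 to -0.09 with ABA, -0.10 to 0.32 with PA and -0.17 to 0.21 with DPA. For the photosystem genes they ran from -0.28 to -0.06, -0.11 to 0.11 and -0.17 to 0.079, and for the Rubisco genes from -0.56 to -0.26, -0.28 to -0.00072 and -0.21 to 0.019. The ABA medians thus stayed below 0 in all 3 groups, but each run kept the low ABA library or the high mock library. Relative to the mock mean, the antenna median was -0.13 in the ABA library of lower size factor. It was -0.16 in the mock library of higher size factor. The photosystem medians of these 2 libraries were -0.07 and -0.12, and the Rubisco medians -0.27 and -0.10. HEMC, HEME2, SEP2 and the root marker RCI3 lost the call with ABA without at least 1 library, and the root marker PYK10 did so in limma with all libraries (adjusted p 0.0817). Fits of the 2 groups alone against mock, and the limma fits of list genes, were chosen after seeing the data.

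No paired analysis was possible because the deposited columns are group means and the recovered libraries carry no replicate number. A pair of planned count models was not run. Low counts limit ELIP2, where 1 to 17 reads were counted per library.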
